A study of Mus musculus with 8 samples.

Results

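The genes described here are the ligands, receptors, secreted inhibitors and intracellular transducers of the Wnt pathway, measured by poly(A) RNA sequencing in PrL tissue, taken from the series' topic as the prelimbic area of the mouse cortex. Members were chosen by gene symbol, as the table rows named Wnt, Fzd, Sfrp, Dkk, Wif1, Frzb, Lrp5 or Lrp6, Axin, Dvl, Tcf7 or Lef1, Ctnnb1, Rspo, Lgr4 to Lgr6, Znrf3, Rnf43, Porcn, Apc and Gsk3. The rule found 58 of the 14765 genes in the table, out of 65 annotated protein-coding genes with such a symbol. The other 7, Dkk1, Dkk4, Rspo4, Wnt11, Wnt3a, Wnt8a and Wnt8b, were not analysed here. Every gene in the table had at least 1 count in every library, and this was the one measured value behind membership. The family was picked for description with SNI and Sham results of the same libraries known, so the counts and p-values below describe these libraries and are no independent support for a pattern in the family.

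The study compared 4 libraries of SNI mice with 4 of Sham mice, all of the genotype C57 by their labels. SNI is spared nerve injury, in which branches of the sciatic nerve are cut to give long-lasting neuropathic pain, and Sham is the control operation. The sources used here give no age, sex or time after surgery. They also do not tie libraries to individual mice, so p-values measure the spread between libraries, which may be partly technical. The labels do not account for a wide gap in Cx3cr1, a chemokine receptor gene of microglia, named after its values were seen. It had 2.23, 1.54, 2.13 and 1.81 CPM in SNI replicates 1 to 4, against 44.8, 51.8, 55.3 and 52.8 CPM in Sham replicates 1 to 4. Every SNI library was far below every Sham library (log2 fold change -4.74 ± 0.13 SE, edgeR adjusted p = 2.41e-12). P2ry12 and Tmem119, other microglial genes named with their values known, rose (log2 fold change 0.59 and 0.48, edgeR adjusted p = 0.031 and 0.0243). Of 11 microglial markers 2 rose and 1 fell, or 27.3%, against 5.02% of all genes. Their summed level overlapped between groups, at 432 to 661 CPM in SNI and 416 to 511 CPM in Sham. A difference between SNI and Sham mice other than the operation, in genotype for example, cannot be told apart from the operation in any comparison below. In bulk tissue, fewer cells of a type and less RNA per cell cannot be told apart.

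Wnt proteins are secreted lipid-modified signals that bind Frizzled receptors together with the co-receptors Lrp5 and Lrp6. Without a signal, a complex of Axin, Apc and the kinase Gsk3 marks beta-catenin (Ctnnb1) for destruction, and with a signal, Dishevelled (Dvl) proteins hold that complex at the membrane and beta-catenin joins TCF/LEF factors on target genes. Secreted Frizzled-related proteins, Wif1 and several Dickkopf proteins act outside the cell on ligands, receptors or co-receptors. In the adult brain the pathway is known for roles in synapses and the blood-brain barrier.

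Libraries held 14735602 to 19602487 counts, so a value of 1 CPM (the count scaled to library size) stood for 14.7 to 20.2 counts. Cortical excitatory neuron markers were abundant, at 4618 to 6439 CPM in SNI and 6591 to 7314 CPM in Sham summed over 6 genes, lower in every SNI library (1 fell, Nrgn). Sham replicate 2 stood apart: 5 genes of the olfactory bulb (Eomes, Cdhr1, Doc2g, Th and Scgn, chosen after their values were seen, with Tbx21 not analysed here) summed to 9.72 to 23.5 CPM in SNI, 144 CPM in Sham replicate 2 and 10.2 to 33.1 CPM in the other 3 Sham libraries. Striatal markers (14 of 15 in the table) summed to 579 to 1181 CPM in SNI and 421 to 717 CPM in Sham (1 rose), highest in SNI replicates 2 and 4. Choroid plexus and ependymal markers (7 of 12 in the table, the others not analysed here) summed to 14.4 to 19.2 CPM in SNI and 7.90 to 10.8 CPM in Sham (2 rose), and 7 upper-layer cortical markers to 555 to 637 CPM in SNI and 668 to 848 CPM in Sham (3 fell). Thalamic and septal markers (11 of 12 in the table) summed to 158 to 182 CPM in SNI, and 3 of 10 tested rose. Their Sham sums were 248 CPM in replicate 2 and 147, 135 and 160 CPM in replicates 1, 3 and 4. Deep-layer cortical markers (8 of 9) summed to 300.4 to 347 CPM in SNI and 209.8 to 309.7 CPM in Sham (2 rose). The 11 microglial markers summed to 432 to 661 CPM in SNI and 416 to 511 CPM in Sham (2 rose and 1 fell). Of these 11 markers 9 had a log2 fold change above 0, with a median of 0.35. The share passing an adjusted p of 0.05 (edgeR) was 5.02% of all genes. It was 16.7% of 6 excitatory, 7.14% of 14 striatal, 28.6% of 7 choroid and ependymal and 42.9% of 7 upper-layer markers tested. For thalamic and septal markers it was 30% of 10, for deep-layer markers 25% of 8 and for microglial markers 27.3% of 11. The lists are short, and these shares were not tested. Sums of astrocyte markers were 3935 to 5109.8 CPM in SNI and 4022 to 4875 CPM in Sham, of endothelial markers 332 to 473 CPM in SNI and 338 to 404 CPM in Sham and of meningeal fibroblast markers 27.5 to 86.5 CPM in SNI and 25.0 to 82.1 CPM in Sham. The 8 oligodendrocyte markers varied widely, from 4238 to 7490 CPM in SNI and from 3034 to 6704 CPM in Sham. They were lowest in Sham replicates 2 and 3 (3034 and 3684 CPM), and 0 passed.

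**Figure D1:**
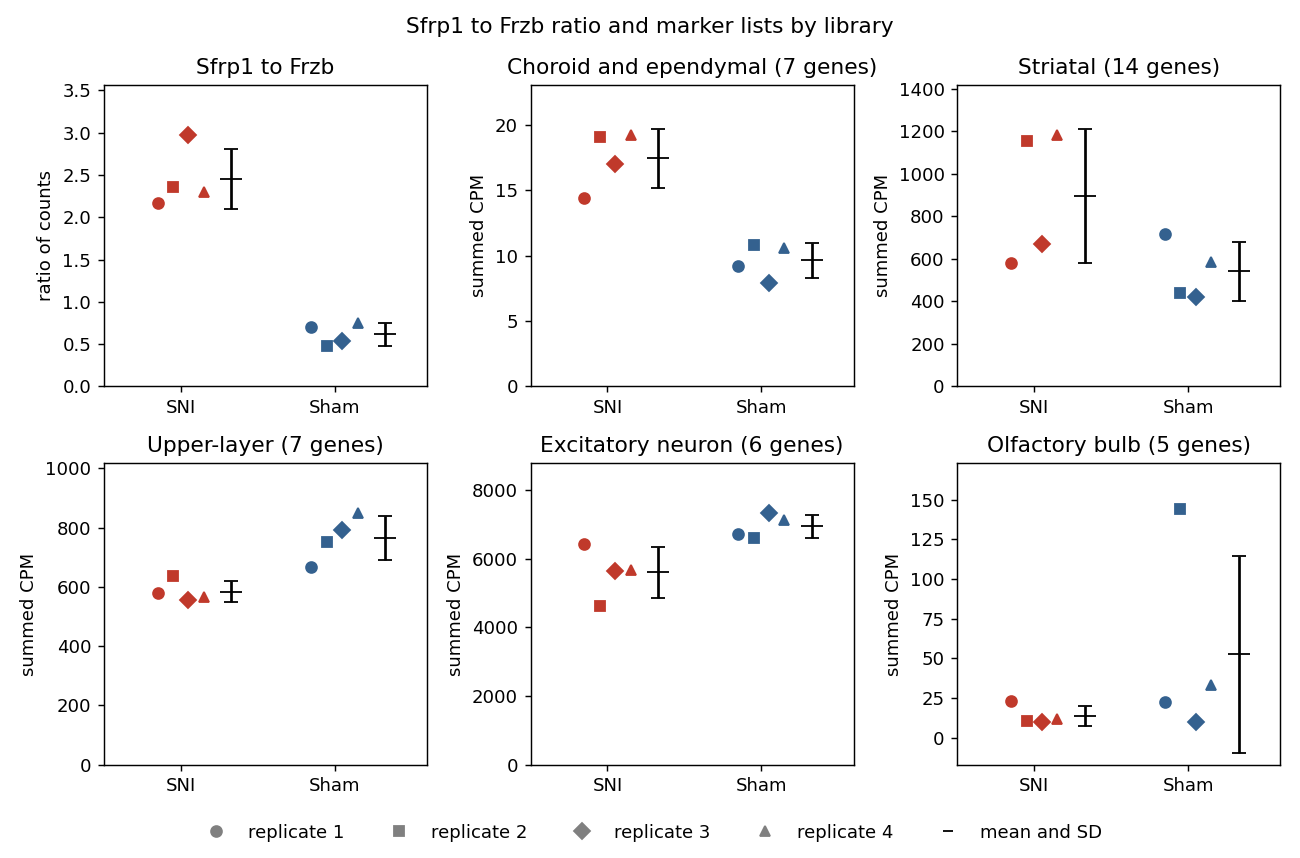
The ratio of Sfrp1 to Frzb counts and summed CPM of marker lists, with 1 point per library (shape gives the replicate number) and the mean with SD beside it, SNI left and Sham right. The ratio lay between 2.17 and 2.97 in SNI libraries and between 0.473 and 0.755 in Sham libraries, and the olfactory bulb sum was 144 CPM in Sham replicate 2.

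Promoter windows of Frzb and Wif1 are shown because both inhibitors fell in SNI and because TCF/LEF factors recognise a short core, CTTTGA. Each window has 300 bases, 250 before and 50 after the RefSeq start (GRCm38.p6), read 5′ to 3′ on the gene's strand. Capitals mark the core on either strand (it reads TCAAAG when it lies on the opposite strand).
Frzb, chr2:80447347-80447646, minus strand: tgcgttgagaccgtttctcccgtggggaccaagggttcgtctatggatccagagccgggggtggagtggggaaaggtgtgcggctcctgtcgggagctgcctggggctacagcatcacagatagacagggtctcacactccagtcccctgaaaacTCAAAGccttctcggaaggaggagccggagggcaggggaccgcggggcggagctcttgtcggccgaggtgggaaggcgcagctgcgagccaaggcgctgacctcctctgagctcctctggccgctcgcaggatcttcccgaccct
Wif1, chr10:121033754-121034053, plus strand: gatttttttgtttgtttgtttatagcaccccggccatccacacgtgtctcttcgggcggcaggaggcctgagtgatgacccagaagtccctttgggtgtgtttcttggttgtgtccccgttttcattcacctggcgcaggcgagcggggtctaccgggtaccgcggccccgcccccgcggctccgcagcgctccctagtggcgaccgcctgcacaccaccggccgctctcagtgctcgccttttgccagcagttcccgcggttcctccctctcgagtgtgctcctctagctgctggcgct
The Frzb window held 1 core, beginning at base -95 from the RefSeq start, and the Wif1 window held 0. GENCODE M21 starts Frzb further upstream, at 80447625, so these bases lie within the gene in that annotation. RefSeq windows were found for 39 of the 58 members (48 windows), not for Sfrp1 or Apc. The core was present in 6 of these windows, or 12.5%, against 16.0% of all 32851 windows. The members' windows had a median G and C content of 67.0%, against 52.7% over all windows. A match describes the letters and is not evidence of binding.

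Levels of different genes were compared per length, as CPM per kilobase of annotated exon (CPM/kb). Dkk3, a divergent member of the Dickkopf family, was the most abundant member at 173 ± 16.2 CPM/kb (SD, n = 8 libraries). It made up 83.7% of the summed level of the 9 genes classed by symbol as secreted inhibitors. Whether Dkk3 or Dkkl1 inhibits Wnt signalling in this tissue was not tested. Next came Ctnnb1 at 81.0 ± 3.71 CPM/kb and Gsk3a at 47.1 ± 7.23 CPM/kb, and the ranges of these 3 genes over the 8 libraries did not overlap. Dvl1, Apc, Gsk3b, Dkkl1 and Porcn followed at levels of 24.7, 21.3, 20.9, 20.5 and 17.5 CPM/kb, each overlapping its neighbour in this order. The leading ligand was Wnt7b (12.1 CPM/kb), followed by Wnt9a (9.31 CPM/kb) and Wnt4 (7.03 CPM/kb). The leading Frizzled receptor was Fzd3 (9.81 CPM/kb), and the leading R-spondin was Rspo2 (6.51 CPM/kb). Frzb and Sfrp1 averaged 5.68 and 5.07 CPM/kb, and Wif1 averaged 0.532 CPM/kb. The lowest levels were those of Sfrp5 (0.226 CPM/kb), Wnt16 (0.129 CPM/kb) and Wnt9b (0.0661 CPM/kb). The TCF/LEF factors ranged from 0.552 CPM/kb for Tcf7l2 to 1.59 CPM/kb for Tcf7, and with the length of the longest transcript Tcf7l2 came to 1.30 and Lef1 to 1.45 CPM/kb, above Tcf7l1 at 0.917 CPM/kb.

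**Figure D2:**
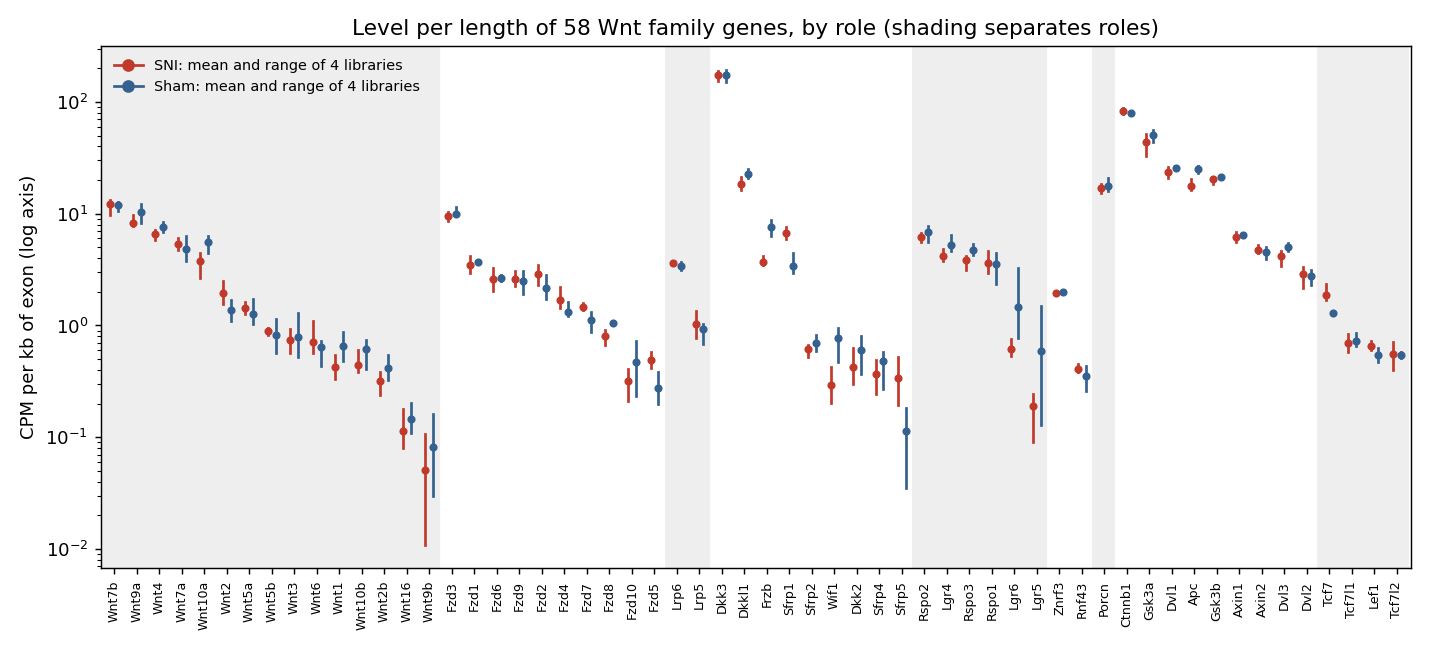
Level of each of the 58 members in CPM per kilobase of exon (log axis), grouped by role, with the mean (point) and range (line) of 4 SNI libraries in red and 4 Sham libraries in blue. Dkk3 was highest at 173 CPM/kb over the 8 libraries and Wnt9b lowest at 0.0661 CPM/kb.

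Between SNI and Sham, 1 member rose (Sfrp1) and 3 fell (Frzb, Wif1 and Apc). Of the 58 members 55 had enough counts to be tested, and 4 of these, 7.27%, passed an adjusted p of 0.05 (edgeR quasi-likelihood test, Benjamini-Hochberg over all 13911 genes tested), against 5.02% of all genes. Over all genes 2.15% were higher and 2.87% lower in SNI (299 and 399 genes), a split that became 446 higher and 276 lower when libraries were scaled by their totals alone. The median log2 fold change was -0.06 over the 55 members and 0.01 over all genes tested, with 23 members above 0 and 32 below. SNI and Sham values did not overlap in 10 of the 55 (4 higher and 6 lower in SNI), and in 12.7% of all genes. An unadjusted p under 0.05 was reached by 18 of the 55, or 32.7%, and by 21.1% of all genes. The family as a whole was not tested and was picked with these results known, so these shares are not read as a result about it, and the account below is of single genes. Members too low to test were Wnt16, Wnt9b and Sfrp5. Of the 51 that did not pass, 44 had a log2 fold change of less than 0.5 in size.

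**Figure D3:**
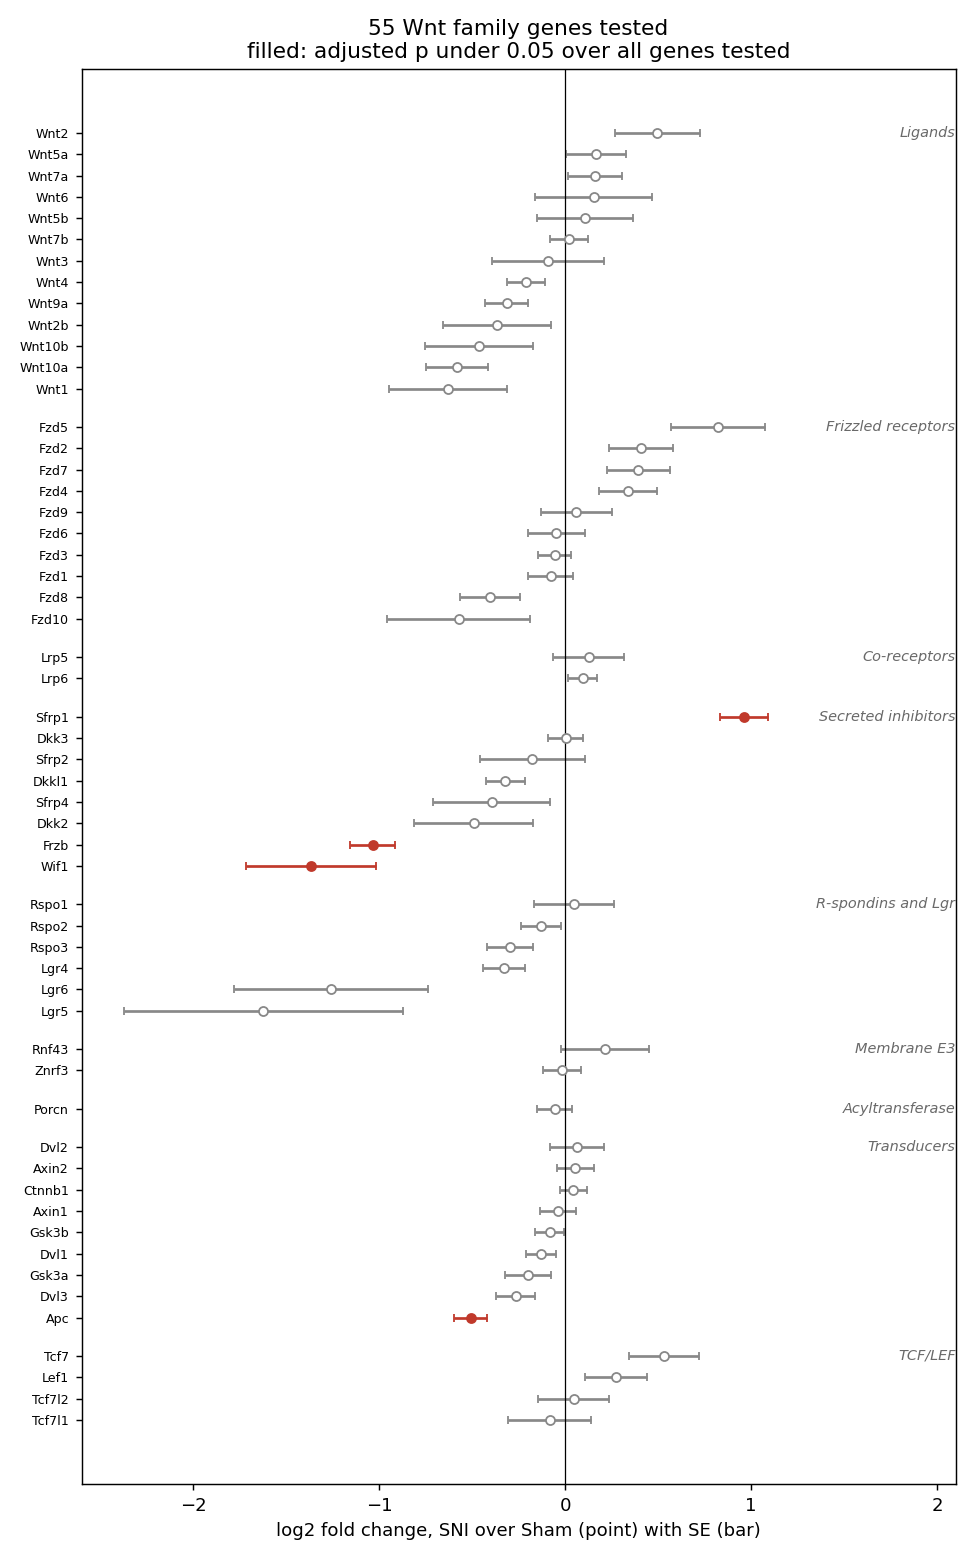
Log2 fold change of SNI over Sham for the 55 members tested, with SE bars, grouped by role. The members that passed are Sfrp1 (0.96), Frzb (-1.04), Wif1 (-1.37) and Apc (-0.51), and the widest bars belong to Lgr5 and Lgr6.

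Secreted inhibitors held 3 of the 4 changes, in both directions. Of 8 tested, 1 rose and 2 fell, or 37.5%, against 5.02% of all genes in either direction. The median log2 fold change of the 8 was -0.36. With so few genes these counts describe the class and set it apart from no other. Sfrp1, a secreted Frizzled-related protein that binds Wnts and Frizzled receptors, had 29.2, 28.8, 33.2 and 26.1 CPM in SNI replicates 1 to 4, against 14.2, 13.5, 12.8 and 19.4 CPM in Sham replicates 1 to 4. All 4 SNI libraries were higher than all 4 Sham libraries. Sfrp1 averaged 29.3 ± 2.93 CPM in SNI and 15.0 ± 3.01 CPM in Sham (SD, n = 4 libraries each). It was 1.95-fold higher in SNI (log2 0.96 ± 0.13 SE, edgeR adjusted p = 0.00128). The gene lies on chromosome 8 from 23411502 to 23449632 on the plus strand (ENSMUSG00000031548.7) in GRCm38 (GENCODE M21).

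Frzb, also called secreted Frizzled-related protein 3, moved the other way. It had 13.4, 12.2, 11.2 and 11.3 CPM in SNI replicates 1 to 4, against 20.4, 28.6, 24.0 and 25.8 CPM in Sham replicates 1 to 4. The highest SNI library lay well below the lowest Sham library. Frzb averaged 12.05 ± 1.04 CPM in SNI and 24.7 ± 3.43 CPM in Sham (SD, n = 4 libraries each). It was lower in SNI by a log2 fold change of -1.04 ± 0.12 (SE, edgeR adjusted p = 0.000511), so that Sham was 2.049 times SNI. Frzb lies on chromosome 2 from 80411970 to 80447625 on the minus strand (ENSMUSG00000027004.3). The ratio of Sfrp1 to Frzb within a library, which no scaling touches, separated the groups. It was 2.17, 2.36, 2.97 and 2.30 in SNI replicates 1 to 4, against 0.698, 0.473, 0.534 and 0.755 in Sham replicates 1 to 4. All SNI ratios were above all Sham ratios. This ratio was formed after the values were seen and is given without a test.

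Wif1, a secreted protein that binds Wnts directly, fell at a low level. Its raw counts were 8, 16, 8 and 17 in SNI replicates 1 to 4, against 34, 35, 27 and 20 in Sham replicates 1 to 4. After scaling the groups nearly met, at SNI replicate 4 and Sham replicate 4. Wif1 averaged 0.711 ± 0.247 CPM in SNI and 1.87 ± 0.562 CPM in Sham (SD, n = 4 libraries each). The log2 fold change was -1.37 ± 0.35 (SE, edgeR adjusted p = 0.0351), with Sham 2.58 times SNI. The call ended when any 1 of 6 of the 8 libraries was left out, which were SNI replicates 1, 2 and 3 and Sham replicates 1, 2 and 3 (edgeR adjusted p of 0.0666, 0.0659, 0.106, 0.0978, 0.092 and 0.0805). Wif1 lies on chromosome 10 from 121033960 to 121100650 on the plus strand (ENSMUSG00000020218.11).

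The remaining secreted inhibitors did not pass. Dkk3 had 639.7, 518, 602 and 566 CPM in SNI replicates 1 to 4, against 546, 508, 652 and 613 CPM in Sham replicates 1 to 4, with a log2 fold change of 0.0045 ± 0.09 (SE, edgeR adjusted p = 0.985). The groups overlapped over nearly their whole ranges. Dkkl1, a Dickkopf-like protein, had 25.5 to 33.5 CPM in SNI and 32.7 to 39.7 CPM in Sham (log2 fold change -0.32, edgeR adjusted p = 0.085), and passed without SNI replicate 1 (-0.40, 0.034). Dkk2, Sfrp4 and Sfrp2 had log2 fold changes of -0.49, -0.40 and -0.18, with means below 2.5 CPM in SNI and in Sham. Sfrp5, too low to test, had 6, 20, 9 and 10 counts in SNI replicates 1 to 4 and 4, 1, 3 and 6 counts in Sham replicates 1 to 4. Summed over the 9 inhibitors, of which Dkk3 gave most, the level was 592 to 721 CPM in SNI and 591 to 731 CPM in Sham, and without Dkk3 it was 70.2 to 81.0 CPM in SNI and 78.4 to 91.8 CPM in Sham.

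**Figure D4:**
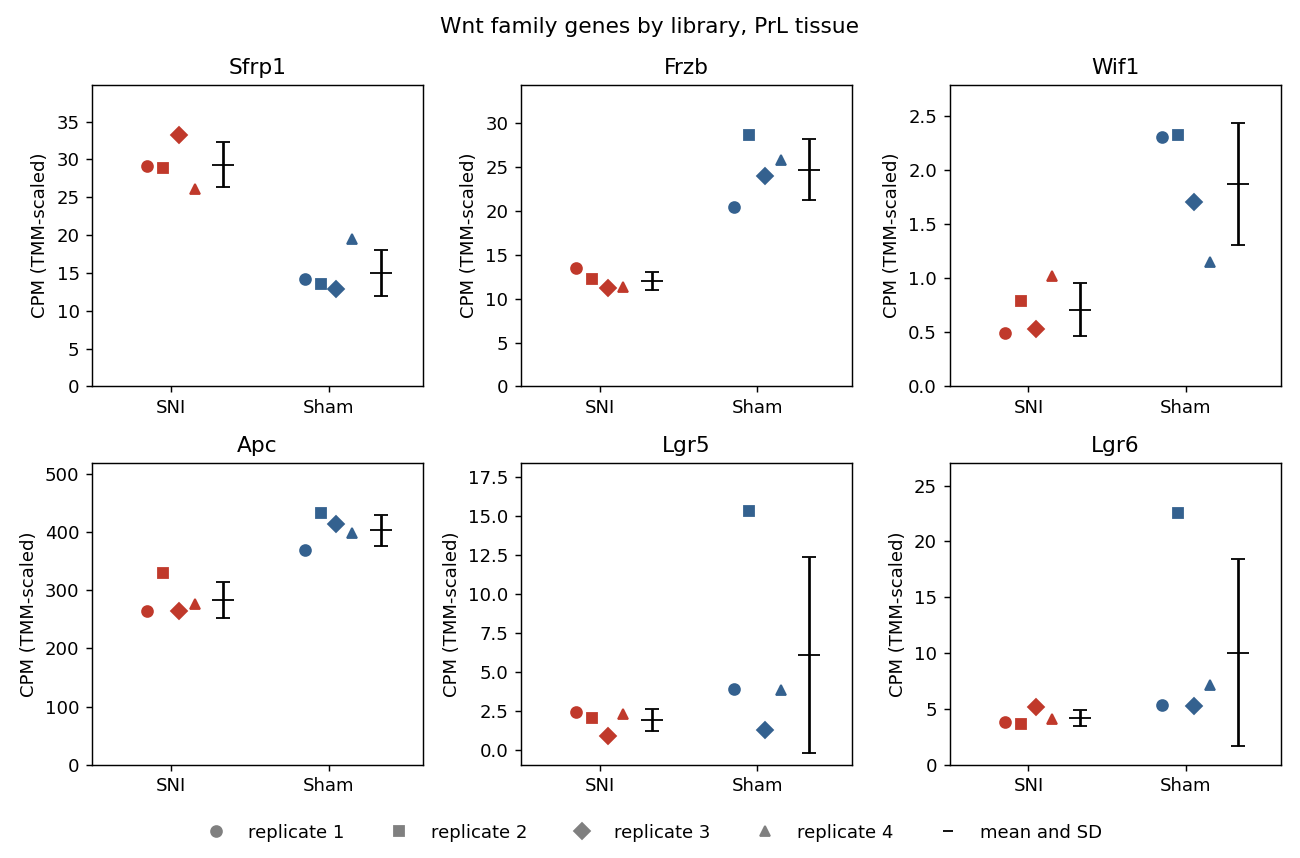
TMM-scaled CPM by library for the 4 members that passed the test and for Lgr5 and Lgr6, with 1 point per library (shape gives the replicate number) and the mean with SD beside it, SNI left and Sham right. For Sfrp1, Frzb, Wif1 and Apc the 4 SNI and 4 Sham libraries do not overlap, and Sham replicate 2 stands above the rest for Lgr5 (15.3 CPM) and Lgr6 (22.5 CPM).

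Among the 9 transducers 1 passed, or 11.1%, against 5.02% of all genes. This was Apc, a scaffold protein of the beta-catenin destruction complex, and it fell. Apc had 264, 329, 264 and 275 CPM in SNI replicates 1 to 4, against 369, 432, 414 and 397 CPM in Sham replicates 1 to 4. The groups did not overlap, and SNI replicate 2 lay nearest to Sham. Apc averaged 283 ± 31.0 CPM in SNI and 403 ± 26.6 CPM in Sham (SD, n = 4 libraries each). The log2 fold change was -0.51 ± 0.09 (SE, edgeR adjusted p = 0.00522), with Sham 1.42 times SNI. The gene lies on chromosome 18 from 34220924 to 34322552 on the plus strand (ENSMUSG00000005871.15). The transducers summed to 1199 to 1289.8 CPM in SNI and 1364 to 1435 CPM in Sham, and without Apc to 905 to 1014 CPM in SNI and 979.6 to 1021 CPM in Sham.

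The other transducers did not pass. Ctnnb1, beta-catenin itself, had 428, 417, 401 and 462 CPM in SNI replicates 1 to 4, against 409.8, 427, 412 and 407 CPM in Sham replicates 1 to 4, a log2 fold change of 0.05 ± 0.07 (SE, edgeR adjusted p = 0.773). SNI libraries lay on both sides of the Sham values. Ctnnb1 lies on chromosome 9 from 120929216 to 120960507, on the same chromosome as Cx3cr1, which runs from 119901616 to 120069879. A link between these genes was not tested. The kinases Gsk3a and Gsk3b had log2 fold changes of -0.20 and -0.08, the scaffold Axin1 had -0.04, and Dvl1, Dvl2 and Dvl3 had -0.13, 0.06 and -0.27. Axin2, a scaffold that is also a widely used target gene of beta-catenin, had 28.9, 24.6, 26.1 and 24.9 CPM in SNI replicates 1 to 4, against 26.3, 21.7, 27.8 and 24.7 CPM in Sham replicates 1 to 4 (log2 fold change 0.06 ± 0.10 SE, edgeR adjusted p = 0.799). The groups overlapped. Exons of Ctnnb1 share bases with Ulk4 on the opposite strand, and whether counting used strand is not given, so part of its counts is uncertain. Exons of 13 of the 58 members, Fzd5, Lef1, Axin2 and Wnt7b among them, share bases with another gene, and those of Sfrp1, Frzb, Wif1 and Apc do not.

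The median log2 fold change of the 13 ligands tested was -0.09. With edgeR 0 of them passed, and 3 (23.1%) had an unadjusted p under 0.05 (all genes 21.1%). The nearest was Wnt10a, with 11.1, 6.54, 9.19 and 10.2 CPM in SNI replicates 1 to 4, against 13.2, 11.1, 15.5 and 15.3 CPM in Sham replicates 1 to 4. SNI replicate 1 and Sham replicate 2 met. Its log2 fold change was -0.58 ± 0.16 (SE, edgeR adjusted p = 0.0527), and it passed with DESeq2 (adjusted p = 0.0189) and, with edgeR, without Sham replicate 2 (0.0321) or SNI replicate 1 (0.0331). Wnt7b, a ligand known in the mouse brain for vessel growth and barrier formation, had 64.6, 47.5, 63.6 and 62.8 CPM in SNI replicates 1 to 4, against 61.1, 62.7, 59.8 and 51.5 CPM in Sham replicates 1 to 4 (log2 fold change 0.02 ± 0.10 SE). The groups overlapped, and SNI replicate 2 was lowest. Wnt7a, its partner in that role, had 0.16, and Wnt9a, Wnt4, Wnt2, Wnt5a, Wnt3 and Wnt1 had log2 fold changes of -0.31, -0.21, 0.50, 0.17, -0.09 and -0.63. The scarcer Wnt5b, Wnt6, Wnt2b and Wnt10b had 0.11, 0.15, -0.37 and -0.46 on the same scale. Porcn, the acyltransferase that lipid-modifies Wnts, had 54.9, 45.9, 50.6 and 54.1 CPM in SNI replicates 1 to 4, against 62.8, 52.7, 49.9 and 48.1 CPM in Sham replicates 1 to 4 (log2 fold change -0.06 ± 0.10 SE). The groups overlapped.

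The median log2 fold change of the 10 Frizzled receptors was 0.00592, and 0 passed with edgeR. An unadjusted p under 0.05 was reached by 5 (4 higher and 1 lower in SNI), or 50%, and by 21.1% of all genes. Fzd5 had 2.85, 3.57, 3.06 and 3.98 CPM in SNI replicates 1 to 4, against 1.83, 2.66, 1.77 and 1.38 CPM in Sham replicates 1 to 4. The SNI values all lay above the Sham values, by a narrow margin at Sham replicate 2. Its log2 fold change was 0.82 ± 0.25 (SE, edgeR adjusted p = 0.0724), and it passed with DESeq2 (adjusted p = 0.0427), with limma voom (0.0456) and, with edgeR, without Sham replicate 2 (0.0497). Fzd7 (0.39) and Fzd8 (-0.40) also did not overlap between SNI and Sham, with edgeR adjusted p of 0.196 and 0.166. Fzd3, the most abundant and known for roles in axon growth, had 119.8, 132, 110.0 and 131 CPM in SNI replicates 1 to 4, against 123, 121, 147 and 121 CPM in Sham replicates 1 to 4 (log2 fold change -0.05 ± 0.09 SE). The groups overlapped. Fzd4, which in mouse brain vessels also serves the ligand norrin, had 0.34, and Fzd2, Fzd1, Fzd6, Fzd9 and Fzd10 had 0.41, -0.08, -0.05, 0.06 and -0.57 on the same log2 scale. The co-receptor Lrp6 had 50.3, 48.8, 50.4 and 48.7 CPM in SNI replicates 1 to 4, against 45.6, 43.3, 46.0 and 50.7 CPM in Sham replicates 1 to 4 (log2 fold change 0.09 ± 0.08 SE, edgeR adjusted p = 0.515). Its groups overlapped at the top of the Sham range, and Lrp5 had 0.13.

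R-spondins and their receptors Lgr4, Lgr5 and Lgr6 raise Wnt signalling by removing the E3 ligases Znrf3 and Rnf43, which clear Frizzled receptors from the membrane. Of these 8 genes 0 passed with edgeR, and 3 (37.5%, all lower in SNI) had an unadjusted p under 0.05 (all genes 21.1%). DESeq2 and limma voom also called 0 of them. Lgr5, known as a stem cell marker in epithelia, had 2.48, 2.08, 0.932 and 2.35 CPM in SNI replicates 1 to 4, against 3.94, 15.3, 1.33 and 3.84 CPM in Sham replicates 1 to 4. Lgr6 had 3.84, 3.67, 5.19 and 4.10 CPM in SNI replicates 1 to 4, against 5.36, 22.5, 5.24 and 7.11 CPM in Sham replicates 1 to 4. Sham replicate 2, the library with olfactory bulb genes, was several-fold above every other library for both receptors. The log2 fold change of Lgr5 was -1.62 ± 0.75 (SE) with all libraries and -0.62 without Sham replicate 2 (edgeR adjusted p of 0.273 and 0.412). That of Lgr6 was -1.26 ± 0.52 (SE) with all libraries and -0.50 without Sham replicate 2 (edgeR adjusted p of 0.225 and 0.21). The part of olfactory bulb genes in these values was not tested.

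Lgr4 had 22.0, 28.1, 24.4 and 23.7 CPM in SNI replicates 1 to 4, against 27.3, 37.6, 29.4 and 29.2 CPM in Sham replicates 1 to 4 (log2 fold change -0.33 ± 0.11 SE, edgeR adjusted p = 0.109). SNI replicate 2 reached into the Sham range. Rspo2, the leading R-spondin, had 34.0, 28.3, 34.2 and 30.7 CPM in SNI replicates 1 to 4, against 34.4, 39.5, 37.0 and 28.4 CPM in Sham replicates 1 to 4 (log2 fold change -0.13 ± 0.11 SE). The groups overlapped. Rspo3 did not overlap between the groups, with 9.72 to 12.9 CPM in SNI and 13.3 to 16.4 CPM in Sham (log2 fold change -0.30, edgeR adjusted p = 0.186), and Rspo1 had 0.05. Znrf3 had 15.7, 15.4, 15.0 and 15.4 CPM in SNI replicates 1 to 4, against 15.1, 16.1, 16.2 and 15.0 CPM in Sham replicates 1 to 4 (log2 fold change -0.02 ± 0.10 SE). Its SNI values lay inside the Sham range. Rnf43 had 2.66, 2.53, 3.00 and 2.53 CPM in SNI replicates 1 to 4, against 2.24, 2.39, 1.71 and 2.87 CPM in Sham replicates 1 to 4 (log2 fold change 0.21 ± 0.24 SE). Sham replicate 4 reached into the SNI range. The 6 R-spondins and Lgr receptors summed to 78.8 to 83.5 CPM in SNI and 90.5 to 136 CPM in Sham, and without Lgr5 and Lgr6 to 72.4 to 77.4 CPM in SNI and 79.5 to 98.0 CPM in Sham, with Sham replicate 2 highest in both sums.

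Of the 4 TCF/LEF factors, which bind DNA for beta-catenin, 0 passed with edgeR, DESeq2 or limma voom. An unadjusted edgeR p under 0.05 was reached by 1 of the 4 (25%), and by 21.1% of all genes. Tcf7 had 4.59, 4.56, 4.46 and 6.15 CPM in SNI replicates 1 to 4, against 3.53, 3.45, 3.41 and 3.27 CPM in Sham replicates 1 to 4. All SNI values were above all Sham values, and SNI replicate 4 was highest. The log2 fold change was 0.53 ± 0.19 (SE, edgeR adjusted p = 0.118). Lef1, known in the mouse brain for thalamic and endothelial expression, had 5.33, 6.34, 5.92 and 5.54 CPM in SNI replicates 1 to 4, against 5.50, 4.12, 4.61 and 4.93 CPM in Sham replicates 1 to 4 (log2 fold change 0.27 ± 0.17 SE, edgeR adjusted p = 0.371). Tcf7l2, which marks thalamic neurons in the mouse brain, had 3.53, 5.15, 6.19 and 4.82 CPM in SNI replicates 1 to 4, against 4.48, 4.58, 5.05 and 4.93 CPM in Sham replicates 1 to 4 (log2 fold change 0.05 ± 0.19 SE). SNI and Sham overlapped for Lef1 and for Tcf7l2. Tcf7l1, mainly a repressor, had -0.08.

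Other genes of the pathway were read from a list of further receptors, planar polarity proteins, regulators of the destruction complex and co-factors. Of 76 tested 2 fell and 0 rose with edgeR, or 2.63% against 5.02% of all genes, and the median log2 fold change was 0.02. An unadjusted p under 0.05 was reached by 16 of them, or 21.1%, and by 21.1% of all genes. DESeq2 called 1 higher and 4 lower, and limma voom 1 higher and 3 lower. Nlk, a kinase that phosphorylates TCF/LEF factors, had 105, 109, 105 and 108 CPM in SNI replicates 1 to 4, against 126, 138, 153 and 155 CPM in Sham replicates 1 to 4 (log2 fold change -0.42 ± 0.08 SE, edgeR adjusted p = 0.00926). Dact2, a Dishevelled-binding protein, had 87.6, 61.5, 72.2 and 64.0 CPM in SNI replicates 1 to 4, against 89.0, 99.7, 99.9 and 116 CPM in Sham replicates 1 to 4 (log2 fold change -0.51 ± 0.11 SE, edgeR adjusted p = 0.0178). SNI and Sham did not overlap for either gene, though SNI replicate 1 lay just under the lowest Sham library for Dact2. The next smallest p was that of Ptk7, a planar polarity receptor, with 10.1 to 13.6 CPM in SNI and 7.24 to 9.73 CPM in Sham (log2 fold change 0.50, edgeR adjusted p = 0.0527). Of 23 genes known as Wnt targets in various tissues, 1 rose and 1 fell, or 8.7% against 5.02% of all genes, with a median log2 fold change of -0.10. Cd44, an adhesion receptor, had 5.00 to 7.65 CPM in SNI and 2.98 to 4.65 CPM in Sham (log2 fold change 0.78, edgeR adjusted p = 0.0347). Mycn, a growth-promoting transcription factor, had 7.59 to 11.3 CPM in SNI and 12.4 to 14.5 CPM in Sham (log2 fold change -0.59, edgeR adjusted p = 0.027). Nkd1, an inducible inhibitor of Dishevelled that stands on both lists, came next by p among the targets, with 19.6 to 25.9 CPM in SNI and 26.1 to 27.2 CPM in Sham (log2 fold change -0.30, edgeR adjusted p = 0.102).

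The 4 changes were set beside the libraries and markers that stood apart. Without Sham replicate 2 the log2 fold changes of Sfrp1, Frzb, Apc and Wif1 were 0.91, -0.96, -0.48 and -1.25, with edgeR adjusted p of 0.00279, 0.00109, 0.0197 and 0.092. Without SNI replicates 2 and 4, in which striatal markers were highest, they were 1.05, -1.003, -0.61 and -1.84, with edgeR adjusted p of 0.0074, 0.00773, 0.00525 and 0.0534. With the mean striatal marker level of each library as a covariate they were 0.93, -0.86, -0.54 and -1.70, and 0 of the 4 passed (edgeR adjusted p of 0.0575, 0.056, 0.125 and 0.224). That fit called 22 genes in all, against 698 without the covariate. Its SEs for these 4 genes were 0.18, 0.17, 0.13 and 0.52, against 0.13, 0.12, 0.09 and 0.35 without the covariate. The mean striatal level was 4.20 to 5.47 log2 CPM in SNI libraries and 3.36 to 4.55 log2 CPM in Sham libraries. The covariate thus ran partly with the group, and this fit does not settle the part of striatal content. The choroid and ependymal sum, like Sfrp1, was higher in every SNI library than in every Sham library, and the upper-layer and excitatory neuron sums, like Frzb, Wif1 and Apc, were lower. Cx3cr1 was lower as well. Of the markers tested, 2 of 8 deep-layer and 3 of 10 thalamic and septal genes rose. Of 11 microglial markers 2 rose and 1 fell. Over all genes 2.15% rose and 2.87% fell. The part of these markers in the 4 changes was not tested.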

How the data were processed

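The authors deposited whole-number counts of reads per gene for 8 libraries. The submitters' processing notes name fastp, HISAT2, StringTie and GRCm38, without versions. In the sources used here, annotation, counting settings and strand use are not given. The smallest deposited count is 1, so a gene at 0 in any library was not analysed here.

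Counts were tested in edgeR 4.0.16 (R 4.3.3) after filterByExpr (13911 of 14765 genes kept) and TMM scaling, with the quasi-likelihood F-test, group as the only term and Benjamini-Hochberg adjustment over all genes tested (threshold 0.05). The biological coefficient of variation was 12.1%. CPM is TMM-scaled. Lengths and coordinates come from GENCODE M21 (GRCm38), matched by symbol for all 58 members. The script was tested on simulated data.

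Members and lists were chosen with earlier results of these data known. Values per library are given for members past the threshold, for the most abundant member and the one with the smallest p in each role class, and for Wif1, Ctnnb1, Axin2, Lef1 and Tcf7l2. Of the other pathway genes and the targets, those past the threshold and the 3 with the smallest p are named. Lgr5 and Lgr6 were added after their values were seen. Alternatives were other scalings and filters, DESeq2 1.42.0, limma voom (3.58.1), a replicate block, a striatal marker covariate, a threshold of 0.1, longest-transcript lengths, and libraries left out.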

Additional observations from a re-analysis of the deposited data

Results flagged for a closer look

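In 10 of the 116 sets of 4 values that the 58 members form in SNI and in Sham, 1 library stood far from the other 3, its gap to the nearest taking more than 0.829 of the range. For normally distributed values chance gives this in about 1 in 20 sets. Whether these CPM values follow that distribution was not tested, and the sets share the same 8 libraries.

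Gsk3b was lowest in SNI replicate 3 at 179 CPM, next to 204 CPM (share of the range 0.839). Fzd3 was highest in Sham replicate 3 at 147 CPM, next to 123 CPM (share of the range 0.928). Wnt7b was lowest in SNI replicate 2 at 47.5 CPM, next to 62.8 CPM (share of the range 0.896). Wnt9a was highest in SNI replicate 1 at 32.3 CPM, next to 26.4 CPM (share of the range 0.903). Lrp5 was lowest in Sham replicate 1 at 6.65 CPM, next to 9.89 CPM (share of the range 0.955). Tcf7 was highest in SNI replicate 4 at 6.15 CPM, next to 4.59 CPM (share of the range 0.926). Lgr6 was highest in Sham replicate 2 at 22.5 CPM, next to 7.11 CPM (share of the range 0.892). Wnt10b was highest in SNI replicate 2 at 2.03 CPM, next to 1.33 CPM (share of the range 0.959). Wnt6 was highest in SNI replicate 3 at 2.40 CPM, next to 1.34 CPM (share of the range 0.915). Wnt6 was lowest in Sham replicate 1 at 0.950 CPM, next to 1.52 CPM (share of the range 0.864). The Lgr6 value belongs to the library that also held olfactory bulb genes. None of the 4 members that passed the test is among these values.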

How the results depend on the processing

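Sfrp1, Frzb and Apc each passed in 18 of 19 alternative fits, all 8 that left out 1 library included, and Wif1 in 8 of 19. For Sfrp1, Frzb and Apc the exception was the striatal marker covariate, which ran partly with the group and gave wider SEs. Under it 0 members were higher, 0 were lower and 0 other pathway genes were lower. Members higher in SNI numbered 1, 2 with DESeq2 or limma voom, 2 at a threshold of 0.1 and 1 to 2 without 1 library. Members lower numbered 3, 4 with RLE scaling, a filter of 1 CPM or DESeq2, 2 with limma voom, 5 at a threshold of 0.1 and 2 to 4 without 1 library. Of other pathway genes, 1 was higher with upper-quartile scaling, library totals, a filter of 1 CPM, DESeq2 or limma voom, and 0 to 1 without 1 library, while 4 were lower with DESeq2, 1 without SNI replicates 2 and 4 or 2 and 3, and 1 to 3 without 1 library. The cause of these shifts was not tested.

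Correlations of deviations ran from -0.143 to -0.00741 for libraries of the same replicate number and from -0.175 to 0.214 for the others. These few pairs cannot show whether replicate numbers pair the libraries. A replicate block called 518 genes in all against 698, with 1 member higher and 3 lower, Wnt10a passing and Wif1 not (adjusted p = 0.0703, edgeR).

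Log2 fold changes near 0, none past the threshold, changed sign. Without 1 library they ran over -0.041 to 0.12 for Wnt7b, -0.090 to 0.021 for Fzd3, -0.059 to 0.068 for Dkk3, -0.036 to 0.0055 for Znrf3, -0.012 to 0.11 for Axin2 and -0.078 to 0.17 for Tcf7l2. Dkk3 had -0.000968 with RLE scaling and -0.00366 with DESeq2. Znrf3 had 0.00717 with upper-quartile scaling, 0.031 with library totals and 0.032 with the covariate. Rspo2 had 0.077 and Tcf7l2 -0.015 with the covariate, and Tcf7l2 had -0.035 with limma voom and -0.19 without SNI replicates 2 and 3. Genes under about 2.5 CPM, Wif1 among them, rest on few counts, and counting error limits their values.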
